A study of Homo sapiens with 6 samples.

Results

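The features described here are long non-coding RNAs (lncRNAs) whose approved symbol ends in AS and a digit, the form given to transcripts that run antisense to a named gene. They were taken by that symbol and by the lncRNA biotype in the deposited table, and a feature was kept where at least 2 of the 6 libraries had a value of 10 or more. Of 608 such lncRNAs, 588 were kept, out of 21773 features that passed and 25827 in the table. The other 20 did not pass and are not described further. TCERG1L-AS1 was just inside the limit, with a second-highest value of 10.1, and CCDC39-AS1 just outside it, with 8.91. A further 12 rows with such a symbol had another biotype and were left out.

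The libraries are PRO-seq libraries, in which engaged RNA polymerases extend their transcripts in permeabilized cells and the extended RNA is sequenced, so that values reflect nascent transcription and not RNA stability. The cells were SBC-3, an established human small cell lung cancer line. Cells transfected with 10 nM of siCtrl, a control siRNA, were compared with cells given 10 nM of siSFPQ-2 or of siSFPQ-3, which target SFPQ. All were collected after 72 h, and each of the 3 groups has 2 libraries. SFPQ encodes a nuclear protein that binds RNA and DNA and is a core part of paraspeckles.

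Antisense lncRNAs fall into 2 broad arrangements. Some start close to the start of their partner gene and are transcribed away from it, sharing its promoter region (head-to-head, or divergent), and others start inside or beyond the partner and run against it. A few have been shown to act on neighbouring genes, as CDKN2B-AS1 does at the locus of the CDKN2A and CDKN2B cell cycle inhibitors, but the symbol itself records position and not function.

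The stretch between the start of an antisense lncRNA and the start of its partner shows how close a head-to-head pair lies. Below are these stretches for 6 pairs whose values are described further on. They were taken from the largest changes and the pairs called in opposite directions, where a pair is head-to-head without overlap and its starts lie close together. TMEM161B-AS1 also met this rule, but its listed promoter windows did not match its start, so no stretch is printed. ELF3-AS1 and ID2-AS1 moved with their partners, TPT1-AS1 moved without its partner, and TMCC1-AS1, STK4-AS1 and TNKS2-AS1 moved against theirs. Sequences are from RefSeq, assembly GRCh38.p14 (the same build as hg38), written 5′ to 3′ on the strand of the antisense lncRNA, and capitals mark matches on either strand to the TATA motif TATAAA, the CCAAT box, the GC box core GGGCGG, the AP-1 motif TGANTCA, the E-box CACGTG or the splice donor letters GGTAAG. The matches in these stretches do not overlap.
ELF3-AS1: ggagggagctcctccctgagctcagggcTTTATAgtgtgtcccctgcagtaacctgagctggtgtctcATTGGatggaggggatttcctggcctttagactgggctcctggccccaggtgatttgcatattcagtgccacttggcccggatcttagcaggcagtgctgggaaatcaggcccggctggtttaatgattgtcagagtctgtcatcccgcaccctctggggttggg
TPT1-AS1: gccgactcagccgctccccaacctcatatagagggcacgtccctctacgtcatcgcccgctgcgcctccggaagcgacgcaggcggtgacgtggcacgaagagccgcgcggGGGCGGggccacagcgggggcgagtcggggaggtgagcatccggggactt
ID2-AS1: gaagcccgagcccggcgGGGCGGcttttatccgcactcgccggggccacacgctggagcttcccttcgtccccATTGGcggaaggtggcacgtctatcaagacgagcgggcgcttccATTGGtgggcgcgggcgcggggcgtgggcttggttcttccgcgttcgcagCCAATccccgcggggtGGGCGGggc
TMCC1-AS1: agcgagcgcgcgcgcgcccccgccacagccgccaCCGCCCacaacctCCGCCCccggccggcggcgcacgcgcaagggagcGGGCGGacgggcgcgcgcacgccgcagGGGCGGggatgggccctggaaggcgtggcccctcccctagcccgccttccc
STK4-AS1: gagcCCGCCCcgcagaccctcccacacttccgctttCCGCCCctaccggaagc
TNKS2-AS1: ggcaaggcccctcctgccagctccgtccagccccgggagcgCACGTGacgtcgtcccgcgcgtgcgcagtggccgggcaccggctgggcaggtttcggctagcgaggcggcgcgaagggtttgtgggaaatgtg

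These stretches lie at chr1:202010354-202010586 (minus strand), chr13:45341184-45341344 (plus), chr2:8681864-8682055 (minus), chr3:129893712-129893870 (plus), chr20:44966459-44966511 (minus) and chr10:91798292-91798425 (minus). They are between 53 and 233 bases long. The antisense lncRNA begins just after the 3′ end as printed, and the partner begins on the other strand just beyond the 5′ end. The stretch of ELF3-AS1 holds 3 CG dinucleotides in 233 bases and a TATAAA match, which reads on the strand of ELF3, near the start of that gene. That of ID2-AS1 holds 25 CG dinucleotides in 192 bases, with 3 CCAAT and 2 GGGCGG matches, and that of TMCC1-AS1 has 4 GGGCGG matches and a GC content of 83.0%. RefSeq now names TMCC1-AS1, STK4-AS1 and TNKS2-AS1 as divergent transcripts (symbols ending in DT). A match is a run of letters and not a shown binding site.

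The libraries held between 12072813 and 18475158 reads, and a single read was worth between 0.797 and 1.11 normalized reads. Nascent transcription of SFPQ was 2295 and 2435 normalized reads in the control libraries and between 1825 and 2466 in the siSFPQ libraries, so that the groups overlapped (log2 fold change -0.22, adjusted p = 0.137 in limma); an siRNA acts on the finished RNA, and this value does not measure the depletion. Of the neuroendocrine markers of small cell lung cancer, SYP averaged 254 in siCtrl, DLL3 127, NEUROD1 29.1 and CHGA 3.81. Of the non-neuroendocrine markers, YAP1 averaged 3084, MYC 2082, REST 1143, VIM 206 and POU2F3 124. No row was used here for INSM1, NCAM1, CDH1, or the immune and endothelial markers. Whether libraries of the same group are separate cultures is not in the labels, and the p-values then reflect only the spread among these libraries, which could be technical. In bulk libraries a change in some of the cells and a smaller change in every cell cannot be told apart.

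In siCtrl the 588 antisense lncRNAs had a median of 193.87 normalized reads, with quartiles of 64.2 and 369, against 86.7 for all lncRNAs and 473 for protein-coding genes. Per kilobase of annotated span the median was 14.7, close to the 15.0 of protein-coding genes, since the spans were short, with a median of 10838.5 bases. MEF2C-AS2, opposite the gene of the transcription factor MEF2C, was highest at 7466, followed by TMEM161B-AS1 (4469) and HOXB-AS3 (3917). Per kilobase the densest were INTS6-AS1, SOCS2-AS1, ASH1L-AS1, BRWD1-AS2 and NFYC-AS1, at 574, 488, 484, 479 and 431 normalized reads. At the low end, 117 had under 50 normalized reads in siCtrl and 13 had under 10. Summed over all 588, the values were 188346 and 183955 in the siCtrl libraries, 161632 and 154839 after siSFPQ-2 and 154048 and 151557 after siSFPQ-3. All 4 siSFPQ libraries lay below both siCtrl libraries in this sum. The sum over their 498 named partner genes ran the other way, at 490727 and 464116 in the siCtrl libraries, 563742 and 580202 after siSFPQ-2 and 606212 and 595490 after siSFPQ-3.

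The siSFPQ libraries were compared with siCtrl on the log2 scale, and a feature was called where its adjusted p over all 21773 features was under 0.05. With the siRNAs averaged, 100 antisense lncRNAs (17.0%) rose and 198 (33.7%) fell, and 290 were not called. Over all features, 24.8% were called higher and 23.2% lower. The median log2 fold change of the antisense lncRNAs was -0.18, against -0.02 over all features, -0.10 over the 4526 other lncRNAs (20.3% higher, 25.8% lower) and 0.02 over protein-coding genes (28.4% higher, 23.0% lower). The partners had a median of 0.09, with 34.1% higher and 22.1% lower. At least 1.5-fold changes were measured for 73 of the antisense lncRNAs that rose and 124 of those that fell, and at least 2-fold changes for 43 and 48. Counting libraries alone, the 4 siSFPQ libraries lay above both siCtrl libraries for 121 and below both for 249, where 30.3% and 31% of all features did so. The counts rested on both siCtrl libraries: without siCtrl replicate 1, 69 rose and 98 fell, and without siCtrl replicate 2, 64 rose and 124 fell, while the share of all features called higher went to 18.2 and 16.6% and the share called lower to 11.3 and 11.6%. Of the 588, 10 passed the filter only through siSFPQ libraries (8 called higher) and 2 only through siCtrl libraries (both called lower), and their calls are no support.

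**Figure D1:**
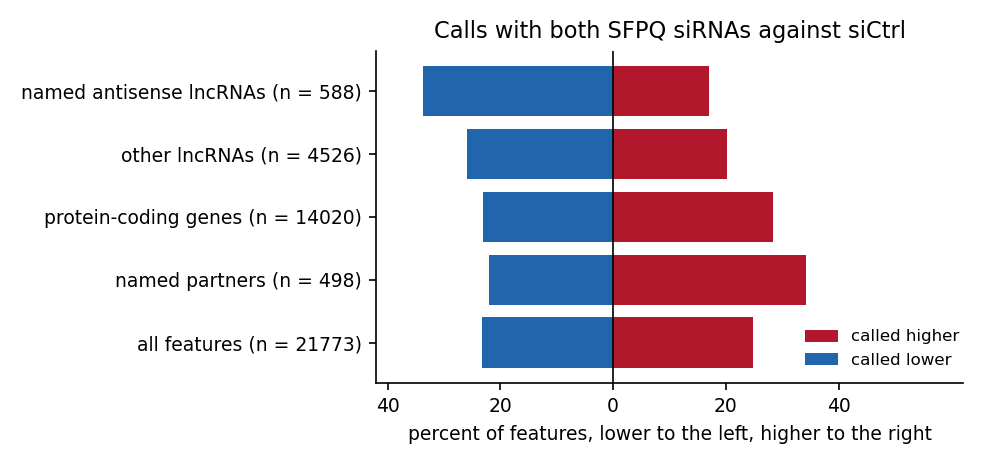
Percent of features called lower (left, blue) and higher (right, red) with both SFPQ siRNAs against siCtrl, for the antisense lncRNAs, other lncRNAs, protein-coding genes, the named partners and all features tested. The antisense lncRNAs had 33.7% called lower and 17.0% higher, and their partners 22.1% lower and 34.1% higher.

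Each siRNA was also set against the same siCtrl libraries, so these comparisons are not independent of each other. With siSFPQ-2, 83 antisense lncRNAs rose and 151 fell (21.2% and 17.9% of all features), with a median log2 fold change of -0.14. With siSFPQ-3, 93 rose and 193 fell (23% and 20.4% of all features), with a median of -0.21. With siSFPQ-2, leaving out siCtrl replicate 1 gave 55 higher and 69 lower, leaving out siCtrl replicate 2 gave 53 and 75, and leaving out siSFPQ-2 replicate 2 gave 50 and 83. With siSFPQ-3, 92 fell without siCtrl replicate 1, and 55 rose and 111 fell without siCtrl replicate 2. Between the siRNAs, limma called 0 antisense lncRNAs in either direction, with 67 at an unadjusted p under 0.05; edgeR called 0, and DESeq2 called 2 higher and 0 lower with siSFPQ-3. Without siSFPQ-3 replicate 1, limma called 4 lower. Over all features, 0.0781% were called higher and 0.023% lower with siSFPQ-3 than with siSFPQ-2. A difference between the siRNAs that misses the threshold with 2 libraries each does not show that they act alike.

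DLGAP1-AS2 and DLGAP1-AS1, which were among the large rises, lie inside DLGAP1, the gene of a scaffold protein of synapses. DLGAP1-AS2 (chromosome 18, 3603737 to 3610089, plus strand) had 27.1 and 39.9 normalized reads in the siCtrl libraries, 281 and 309 after siSFPQ-2 and 444 and 576 after siSFPQ-3. Every siSFPQ library was at least several times above both controls, a log2 fold change of 3.51 ± 0.18 (standard error; 11.4-fold; adjusted p = 3.13e-07). DLGAP1-AS1 (3594114 to 3597379), its neighbour on the same strand, went from 24.7 and 29.9 to between 221 and 416, a log2 fold change of 3.32 ± 0.18. DLGAP1 itself, on the other strand, had values between 9278 and 14538 with overlapping groups (log2 fold change -0.25, adjusted p = 0.226). The antisense lncRNAs nearer to its start moved the other way. DLGAP1-AS3 had 317 and 315 in siCtrl and 144, 83.0, 138 and 81.0 in the siSFPQ libraries, and DLGAP1-AS4, named here after its values were seen, had 2408 and 2200 against values between 923 and 1414. Both fell, by 1.55 and 0.97 on the log2 scale. They lie nearer to the start of DLGAP1 than DLGAP1-AS1 and DLGAP1-AS2, which rose, but DLGAP1-AS3 (3878180 to 3897069) is still far from that start. The strand of DLGAP1-AS3 was not listed.

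ELF3-AS1 starts 234 bases from ELF3, the gene of a transcription factor of epithelial cells, on the opposite strand (chromosome 1, 202000051 to 202010353). It had 28.7 and 33.2 normalized reads in the siCtrl libraries, 229 and 277 after siSFPQ-2 and 323 and 522 after siSFPQ-3. ELF3 had 123 and 127, then 769 and 718, then 997 and 1395. Both rose in all 4 siSFPQ libraries, with log2 fold changes of 3.34 ± 0.20 and 2.89 ± 0.13, and their ratio was not called (log2 change 0.44, adjusted p = 0.085). The rise of ELF3-AS1 was the largest among the antisense lncRNAs in head-to-head pairs. The stretch of this pair printed above has few CG dinucleotides. Its TATAAA match reads on the strand of ELF3 and lies nearer to the start of ELF3 than to that of ELF3-AS1.

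Other rises were spread over long and short transcripts. DPYD-AS1, inside the gene of the enzyme that breaks down pyrimidines, had 45.4 and 62 in siCtrl and between 228 and 266 in the siSFPQ libraries (log2 fold change 2.20 ± 0.17), while DPYD rose by 1.49. EPS15-AS1, head-to-head with an endocytosis gene, went from 137 and 123 to between 334 and 499 (1.72 ± 0.14; EPS15 0.78). GNG12-AS1, which spans 370700 bases, went from 234 and 281 to between 621 and 905 (1.46 ± 0.14), less than GNG12, a G protein subunit gene (2.36; ratio -0.90, adjusted p = 0.00129). STXBP5-AS1, PRICKLE2-AS3, MAP3K14-AS1, JMJD1C-AS1 and PROX1-AS1 rose by 1.18, 0.93, 0.85, 0.75 and 0.74. PROX1, which encodes a transcription factor of lymphatic and neural development, and the demethylase gene JMJD1C rose by more than their antisense lncRNAs, at 1.74 and 1.78. Of these, the JMJD1C-AS1 call was lost without siCtrl replicate 2 (adjusted p = 0.0541).

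TPT1-AS1 differed from its partner. TPT1 encodes translationally controlled tumour protein, an abundant growth-related protein, and the pair starts 162 bases apart on chromosome 13. TPT1-AS1 (45341345 to 45391483) had 633 and 578 in the siCtrl libraries, 1049 and 1333 after siSFPQ-2 and 1066 and 1180 after siSFPQ-3, a log2 fold change of 0.93 ± 0.11 (adjusted p = 0.000106). TPT1 had 676 and 621, 722 and 820, and 660 and 746, with overlapping groups (0.18, adjusted p = 0.174). The ratio rose by 0.75 (adjusted p = 0.00095), across the stretch printed above.

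The largest fall of the 588 was that of ID2-AS1 (chromosome 2, 8670984 to 8681863, minus strand). It had 646 and 613 normalized reads in the siCtrl libraries, 161 and 49.8 after siSFPQ-2 and 139 and 40.5 after siSFPQ-3. The siSFPQ libraries lay far below the controls but spread widely within each siRNA, and the log2 fold change was -2.92 ± 0.47 (adjusted p = 0.00061). ID2, an inhibitor of basic helix-loop-helix transcription factors, had 1267 and 1334 in siCtrl and between 501 and 578 in the siSFPQ libraries (-1.28 ± 0.10). The pair ratio fell by 1.64 (adjusted p = 0.0249), a call that was lost without siCtrl replicate 1 (adjusted p = 0.146) or siCtrl replicate 2 (0.121).

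TMEM161B-AS1 (chromosome 5, 88268882 to 88436674) was the most highly transcribed of the large falls, with 4617 and 4320 in the siCtrl libraries, 1880 and 1445 after siSFPQ-2 and 1774 and 1119 after siSFPQ-3 (-1.55 ± 0.17, adjusted p = 4.7e-05). TMEM161B, a membrane protein gene 37 bases away on the other strand, fell by 1.09. SOCS2-AS1 had 2907 and 2727 against values between 697 and 1303 (-1.50 ± 0.16), and SOCS2, a suppressor of cytokine signalling, fell by 0.87. SLC5A4-AS1 fell by 1.92, MRPL23-AS1 by 1.55, RBMS3-AS2 by 1.27, NALCN-AS1 by 1.26, NRSN2-AS1 by 1.25 and LIN28B-AS1 by 1.22. LIN28B, which blocks maturation of let-7 microRNAs, was not called (log2 fold change -0.18, adjusted p = 0.245). The RBMS3-AS2 call was lost without siCtrl replicate 1 (adjusted p = 0.0514).

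**Figure D2:**
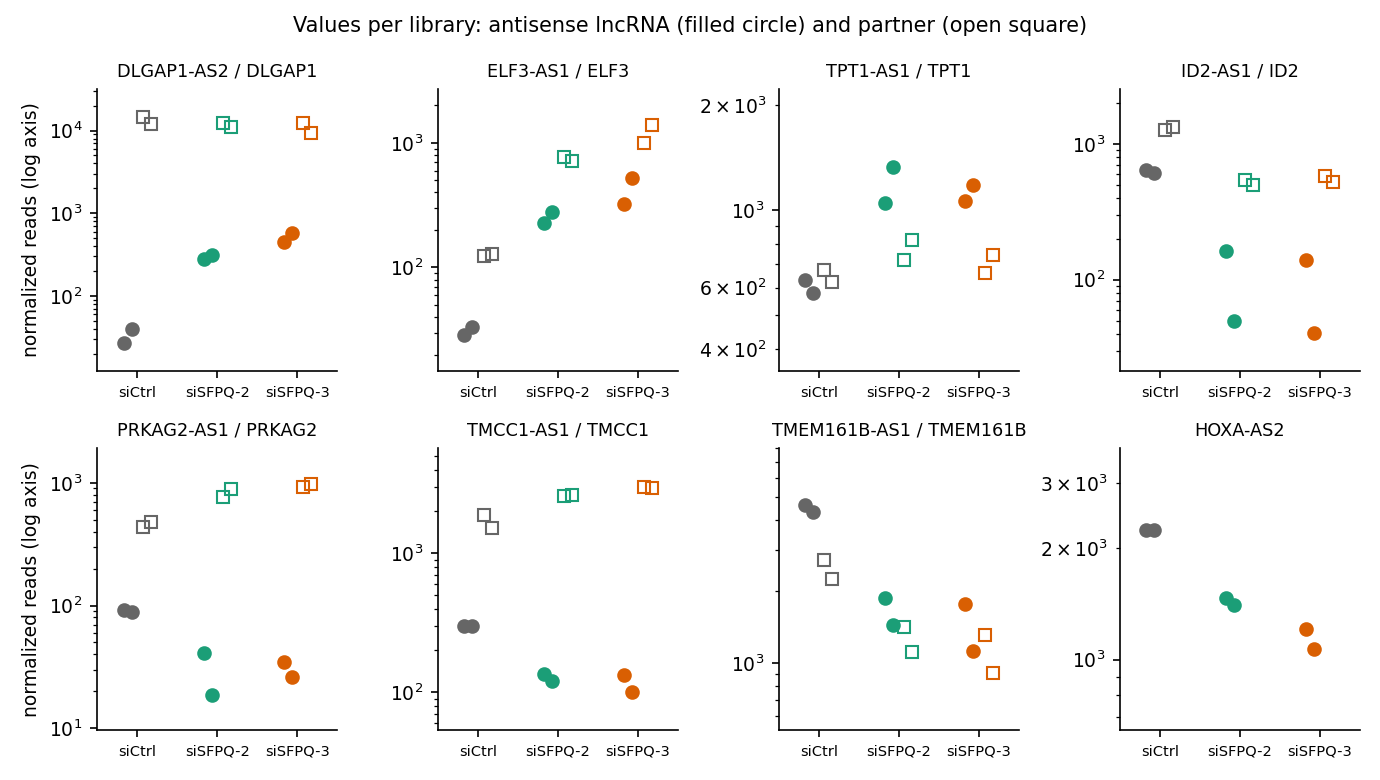
Normalized reads (log axis) in each of the 6 libraries for 8 antisense lncRNAs (filled circles) and, where tested, their partners (open squares), by siRNA group. DLGAP1-AS2 rose while DLGAP1 stayed between 9278 and 14538, and PRKAG2-AS1 and TMCC1-AS1 fell while their partners rose.

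To ask whether an antisense lncRNA changed with its partner, the ratio of both was tested in 509 pairs in which the partner was also tested. The other 79 had no partner row, among them the HOX cluster members, and 20 shared a partner with another. The ratio rose in 57 pairs, fell in 178 and was not called in 274. That is 46.2% called, where 45.8% of all 16673 ratios of neighbouring or named features were called in either direction. The median change of the log2 ratio was -0.30. Without siCtrl replicate 1 the ratio rose in 22 pairs and fell in 114, and without siCtrl replicate 2 in 28 and 107. By calls on each side, 67 pairs fell together and 48 rose together. In 33 pairs the antisense lncRNA fell and the partner rose, and in 6 the reverse. The antisense lncRNA alone rose in 29 pairs and fell in 70, the partner alone rose in 90 and fell in 40, and in 126 neither was called. Taken singly, 16.3% of these antisense lncRNAs rose and 33.4% fell, and 34.1% of their partners rose and 22.1% fell. The joint counts were not taken over the neighbouring pairs, so they do not show that moving together or apart is particular to antisense pairs. Across the 509 pairs of every arrangement, the log2 fold changes of antisense lncRNA and partner had a Pearson correlation of 0.447. Over 16164 pairs of genomic neighbours, which include pairs on the same strand or with a strand not listed, it was 0.218. For starts head-to-head within 1 kb, it was 0.553 over 173 antisense pairs and 0.368 over 1022 neighbours. These are descriptions, since pairs share the libraries, and some share a partner.

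**Figure D3:**
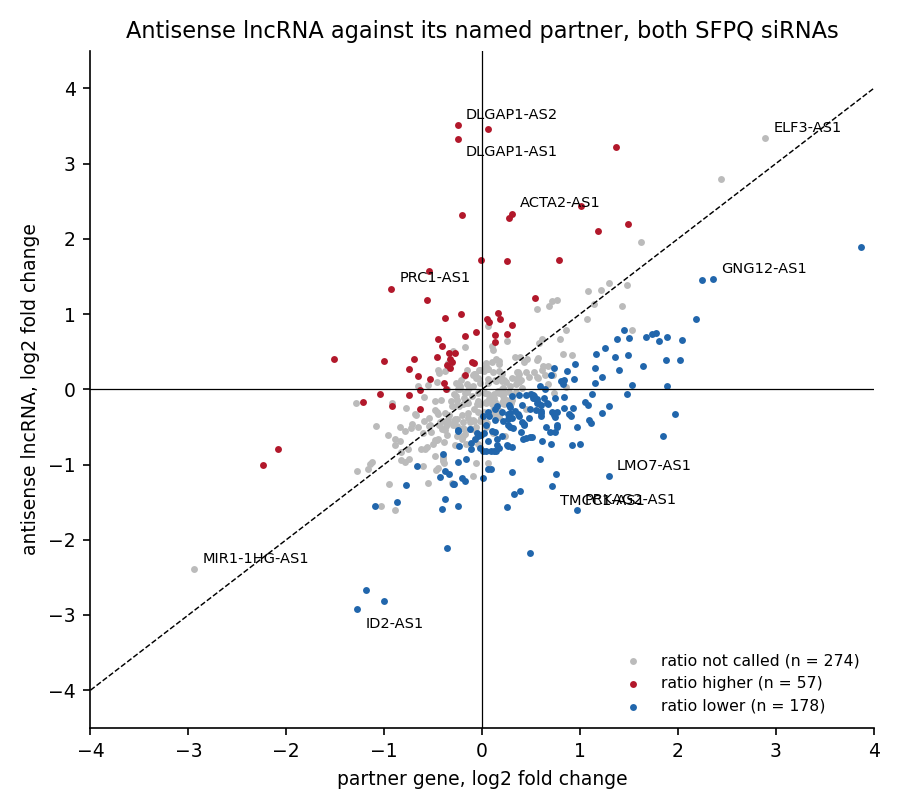
Log2 fold change of each antisense lncRNA (vertical) against that of its partner (horizontal) with both SFPQ siRNAs, for 509 pairs; the dashed line marks equal change. Colours mark the 57 pairs with a higher ratio, the 178 with a lower ratio and the 274 not called, and more pairs lie below the line than above it.

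Pairs were then sorted by their arrangement in the RefSeq table. In 93 head-to-head pairs that do not overlap, with starts a median of 148 bases apart, 7 antisense lncRNAs rose and 40 fell. Their ratio rose in 3 pairs and fell in 41, with a median of -0.39, although 28 of the partners rose and 17 fell. In 147 head-to-head pairs that overlap, with starts a median of 777 bases apart, 23 rose and 47 fell, and the ratio rose in 10 and fell in 52. Antisense lncRNAs lying wholly inside their partner numbered 64, of which 18 rose and 17 fell, with a median log2 fold change of 0.12 and a ratio that rose in 10 and fell in 20. Of 50 that overlap their partner tail-to-tail, 9 rose and 22 fell. Across pairs the correlation with the partner was 0.643 for head-to-head pairs that do not overlap, 0.576 for those that do, 0.427 inside the partner and 0.160 tail-to-tail. For 135 pairs the strand was not listed, with 19 higher and 43 lower. Among all features, 24.8% were called higher and 23.2% lower. The difference between arrangements was not tested.

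**Figure D4:**
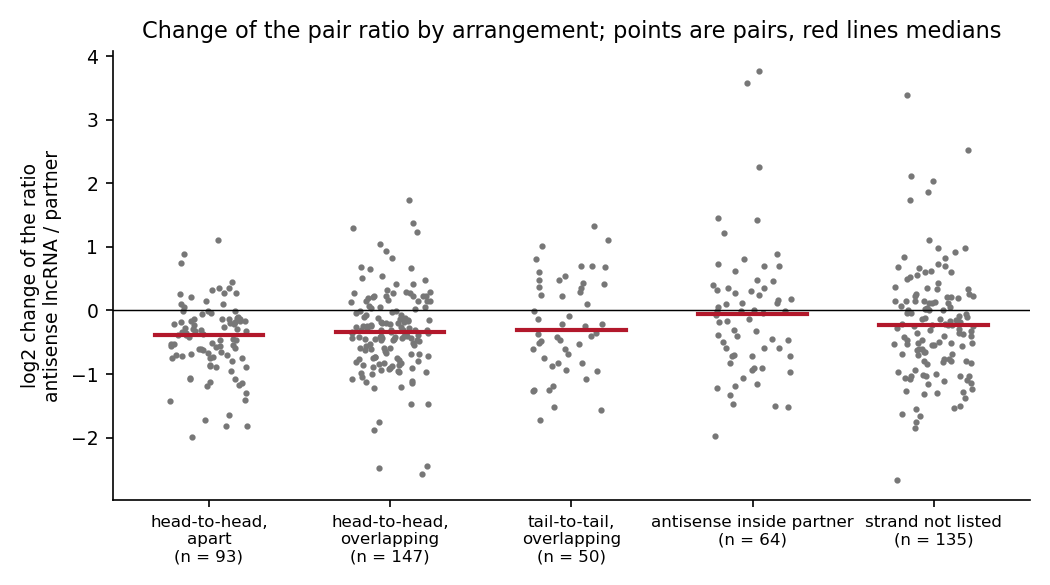
Change of the log2 ratio of antisense lncRNA to partner by arrangement of the pair, each point a pair and red lines the medians. The medians were -0.39 and -0.34 for head-to-head pairs without and with overlap, -0.30 tail-to-tail, -0.05 inside the partner and -0.24 where the strand was not listed.

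RefSeq names 35 of the antisense lncRNAs as divergent transcripts, of which 2 rose (5.71%) and 15 fell (42.9%), with a median of -0.42. The 107 features whose own symbol ends in DT had 15 higher (14.0%) and 25 lower (23.4%) and a median of -0.12. Among all features, 24.8% were called higher and 23.2% lower, so the share of falls among the 107 was near that of all features. TMCC1-AS1 (chromosome 3, 129893871 to 129908912) is an example from the 35. It had 300 and 298 normalized reads in the siCtrl libraries, 136 and 121 after siSFPQ-2 and 133 and 101 after siSFPQ-3, while TMCC1, a gene of an endoplasmic reticulum membrane protein starting 160 bases away, had 1887 and 1523, 2573 and 2619, and 3002 and 2926. No siSFPQ value of either gene lay within its control range. The log2 fold changes were -1.28 ± 0.16 and 0.71 ± 0.11, and the ratio changed by -1.99 ± 0.16 (adjusted p = 5.15e-05).

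Other pairs parted in the same way. TNKS2-AS1 had 211 and 194 in siCtrl and between 120 and 129 in the siSFPQ libraries (-0.69 ± 0.14), and TNKS2, a poly-ADP-ribosylating tankyrase, rose by 0.61. STK4-AS1 had 178 and 132 against values between 67.9 and 111 (-0.73 ± 0.19, a call lost without siCtrl replicate 1, adjusted p = 0.152), and STK4, a kinase of the Hippo pathway, rose by 0.70. PRKAG2-AS1, starting 73 bases from the gene of a subunit of the energy-sensing kinase AMPK, had 91.7 and 88.6 against values between 18.8 and 41.0 (-1.60 ± 0.30), and PRKAG2 rose by 0.97. PRRT3-AS1, MBNL1-AS1, DLGAP4-AS1, TM4SF19-AS1 and LMO7-AS1 fell by 1.12, 0.74, 0.92, 0.73 and 1.15, and their partners rose by 0.76, 0.92, 0.59, 1.00 and 1.29. MBNL1 is a splicing regulator. The LMO7-AS1 call was lost without siCtrl replicate 1 (adjusted p = 0.115) or 2 (0.0576). TBC1D8-AS1 fell by 1.56 and TBC1D8 rose by 0.25. TESC-AS1 was not called (0.04, adjusted p = 0.904) beside a rise of TESC by 1.89.

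Some antisense lncRNAs rose against or beyond their partner. PRC1-AS1, inside PRC1, had 16.7 and 13.3 in the siCtrl libraries, 49.0 and 37.6 after siSFPQ-2 and 40.9 and 31.4 after siSFPQ-3 (1.34 ± 0.27, adjusted p = 0.0023). PRC1, which bundles microtubules in dividing cells, fell by 0.93, and the ratio changed by 2.26 ± 0.26. ACTA2-AS1, opposite the smooth muscle actin gene, went from 23.9 and 31.0 to between 117 and 172 (2.34 ± 0.19) while ACTA2 was not called (0.30, adjusted p = 0.167). DIAPH2-AS1 rose by 1.72 beside a log2 fold change of -0.01 in DIAPH2, and ZNF341-AS1 rose by 0.94 while ZNF341 fell by 0.38. TMEM26-AS1 fell by 0.79, less than TMEM26 (-2.08), so that the ratio rose by 1.29. The call of the fall of TMEM26-AS1 was lost without siCtrl replicate 1 (adjusted p = 0.0856) or 2 (0.0678). The call of that ratio was lost without siCtrl replicate 1 (0.51, adjusted p = 0.388), siSFPQ-2 replicate 2 (0.0848) or siSFPQ-3 replicate 2 (0.0707).

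Values inside or close to a partner depend on how reads were assigned to strands, and no source used here says whether strand was used. Where the antisense lncRNA lies wholly inside its partner, its level per kilobase was between 0.0274 and 279 times that of the partner. PRC1-AS1 covers 22256 of the bases of PRC1 and had a mean of 15.0 in siCtrl, where PRC1 had 693 and 708. The part of reads from the opposite strand in any value was not tested.

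Grouped by the partner's role, the antisense lncRNAs of adhesion, matrix and cytoskeleton genes were the group with the highest share of rises. Here 10 of 22 (45.5%) rose and 2 (9.09%) fell, with a median of 0.41, and 16 of their 18 tested partners rose and 0 fell. Among all features, 24.8% were called higher and 23.2% lower, and among the 588 antisense lncRNAs 17.0% and 33.7%. DST-AS1, ARHGAP5-AS1 and SEMA3F-AS1, picked after their values were seen, rose by 1.96, 1.32 and 1.31, with DST, ARHGAP5 and SEMA3F at 1.63, 1.22 and 1.08. In the same libraries 2 of 3 epithelial markers with a row rose (KRT8 by 1.40 and KRT18 by 3.24, but not EPCAM), and their summed value went from 921 and 1016 in siCtrl to between 2207 and 2717. Of 4 fibroblast markers, COL1A1 rose by 1.16, COL1A2 was not called, and no row was used for COL3A1 and DCN; the sum went from 255 and 224 to between 411 and 582. Their part in these rises was not tested. Of 22 with a partner in RNA processing or translation, 4 rose and 10 fell. Of 14 opposite cell cycle, replication or repair genes, 1 rose (PRC1-AS1) and 4 fell, and 7 of 14 partners fell. Transcription factor and chromatin genes had 86, with 14 higher (16.3%) and 23 lower (26.7%). Signalling genes had 28, with 6 higher (21.4%) and 7 lower (25%), and the 416 others had 65 higher (15.6%) and 152 lower (36.5%). The differences between roles were not tested.

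Of 48 well-studied antisense lncRNAs, 27 were tested, with a median of -0.23. Of these, 6 rose and 11 fell, where 17.0% and 33.7% of the 588 and 24.8% and 23.2% of all features did so. The tested antisense lncRNAs of the HOX clusters, which hold the genes of body axis patterning, were among the falls. HOXA-AS2 had 2241 and 2234 in the siCtrl libraries, 1463 and 1404 after siSFPQ-2 and 1209 and 1070 after siSFPQ-3 (-0.81 ± 0.09, adjusted p = 6.48e-05). HOXB-AS1 fell by 0.88, HOXA-AS3 by 1.87 from a low level, and HOXB-AS3 by 0.30. The HOXB-AS3 call was lost without siCtrl replicate 1 (adjusted p = 0.0902), siCtrl replicate 2 (0.182), siSFPQ-2 replicate 2 (0.0939) or siSFPQ-3 replicate 2 (0.053).

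TMPO-AS1, MCM3AP-AS1, DDX11-AS1 and HIF1A-AS1 fell by 0.97, 0.79, 1.17 and 0.81. HIF1A, the hypoxia factor, and MCM3AP were not called (log2 fold changes 0.09 and -0.12), while TMPO, a gene of the nuclear lamina, and the helicase gene DDX11 fell by 0.78 and 0.43. HAND2-AS1 had 69.3 and 60.9 in siCtrl and between 3.32 and 18.7 in the siSFPQ libraries (-2.67 ± 0.52), and HAND2, a transcription factor of heart and sympathetic neurons, fell by 1.19. FGD5-AS1 fell by 0.43 and CYP4A22-AS1 by 0.60. These calls were lost without siCtrl replicate 1 (adjusted p = 0.0566 and 0.114), and that of FGD5-AS1 also without siCtrl replicate 2 (0.0791).

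ARHGEF26-AS1 rose by 1.11, TTN-AS1 by 0.61, GATA2-AS1 by 0.52 and SBF2-AS1 by 0.37, and ZEB2-AS1, opposite a repressor of the epithelial state, rose by 0.78 with an adjusted p of 0.04 (0.0544 with every library scaled to the same total, 0.191 in DESeq2). ZEB2-AS1 was called without siSFPQ-3 replicate 1, but not without any other library, where its adjusted p was between 0.0603 and 0.199. The SBF2-AS1 call was lost without siCtrl replicate 1 (0.0779) or 2 (0.161), that of GATA2-AS1 without siCtrl replicate 1 (0.0539) and that of TTN-AS1 without siCtrl replicate 2 (0.0502). EGFR-AS1 had 0 and 1.11 in the siCtrl libraries, 7.13 and 5.54 after siSFPQ-2 and 21.5 and 27.3 after siSFPQ-3, against 361 and 330 for the receptor gene EGFR in siCtrl and between 776 and 1040 in the siSFPQ libraries. It was called higher, but it passed the filter only through the siSFPQ-3 libraries, where it is highest, so that its call is no support; without it, 5 of 26 were called higher. Its control values stand for 0 and 1 read, and no fold change is given. OIP5-AS1 (-0.23, adjusted p = 0.0588), CDKN2B-AS1 (-0.07, adjusted p = 0.757), ZEB1-AS1 (0.19), FOXD2-AS1 (0.19), GATA3-AS1 (0.50), GATA6-AS1 (-0.08), LEF1-AS1 (-0.65), MNX1-AS1 (-0.30), DHRS4-AS1 (-0.16) and SPRY4-AS1 (0.11) were not called. SPRY4, an inhibitor of receptor tyrosine kinase signalling starting 272 bases from SPRY4-AS1, rose by 0.80.

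MIR1-1HG-AS1, opposite the host gene of microRNA miR-1 on chromosome 20, was the only antisense lncRNA whose symbol begins with MIR. It had 121 and 129 in siCtrl and between 10.1 and 35.6 in the siSFPQ libraries (-2.39 ± 0.38). Its partner MIR1-1HG went from 199 and 181 to between 12.2 and 43.0 (-2.94), and the ratio was not called (adjusted p = 0.252). Of the densest transcripts per kilobase, apart from SOCS2-AS1, INTS6-AS1, ASH1L-AS1, BRWD1-AS2 and NFYC-AS1 fell by 0.34, 0.36, 0.33 and 0.39, and each of these calls was lost without siCtrl replicate 1 (adjusted p between 0.0993 and 0.149), those of INTS6-AS1, ASH1L-AS1 and BRWD1-AS2 also without siCtrl replicate 2 (between 0.103 and 0.119).

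Span and level moved with the calls. Among antisense lncRNAs over 50 kb, 24.8% rose and 32.4% fell, where 44.1% of all features of that span rose and 14.4% fell. Between 5 and 20 kb, 18.7% rose and 39.9% fell, against 18.0% and 29.7% of all features. Under 2 kb the shares were 12.1% and 27.3%, against 12.9% and 23.3%. With a mean over 1000 normalized reads, 2 of 21 antisense lncRNAs rose and 12 fell, where 42.5% of all features at that level rose and 17.2% fell. The part of span or level in the counts was not tested.

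Signal along the transcripts came from the deposited profiles of 500 bins, in which the middle 300 were taken as the gene, and only shares within a library were used. For 583 antisense lncRNAs with signal in every library, the first 30 gene bins held a median of 33.1 and 34.9% of the gene's signal in the siCtrl libraries, 33.4 and 34.1% after siSFPQ-2 and 31.2 and 33.5% after siSFPQ-3, with overlapping groups. Those called higher had 30.2 and 29.1% in siCtrl and 26.4, 26.4, 23.4 and 27.3% in the siSFPQ libraries, all below siCtrl. Those called lower had 34.7 and 36.3%, then 36.1, 38.4, 33.8 and 37.8%, with overlap. The calls chose these sets, so the shares describe them only. Head-to-head antisense lncRNAs kept 35.6 to 38.8% of their signal in these first bins, and those inside or tail-to-tail 27.2 to 29.2%. Signal per bin was higher in the 100 bins before the start than in the gene bins, by a median of 1.61 and 1.58 times in siCtrl. The lengths these bins cover are not given, so this is no comparison per base. Signal of a head-to-head partner may lie in the bins before the start, and the use of strand is not known.

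**Figure D5:**
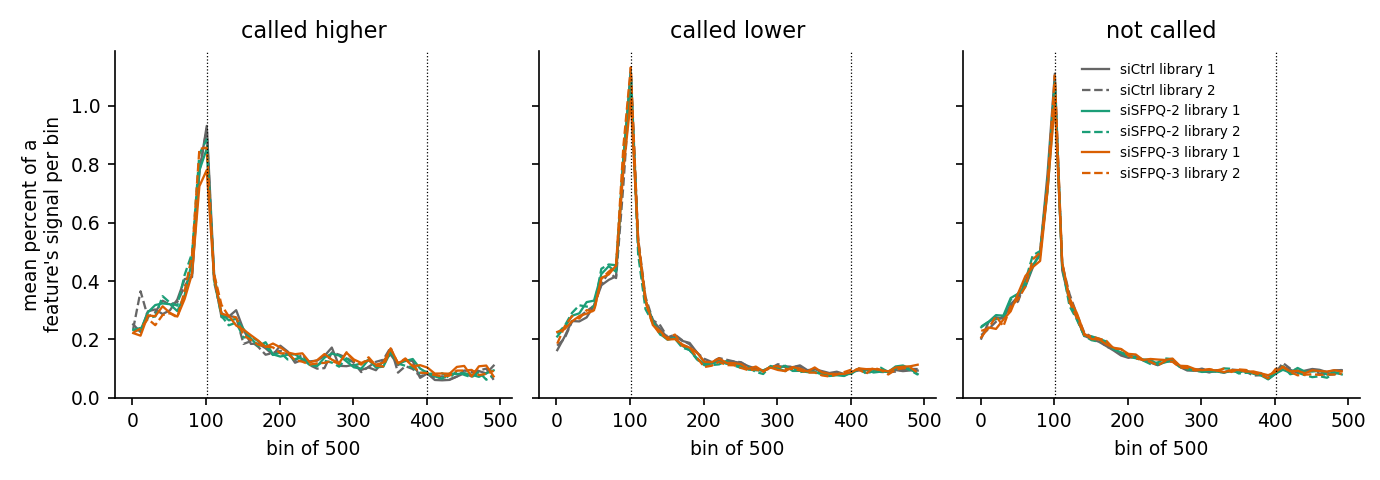
Mean percent of a feature's signal per bin along 500 bins in each library, for antisense lncRNAs called higher, called lower or not called; dotted lines mark the bins taken as start and end of the gene. In all 6 libraries signal peaks at the start, and it is also present before it.

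Promoter windows of 300 bases, from 250 before to 50 after the start, were listed in RefSeq for 455 of the antisense lncRNAs. GGGCGG, the core of a GC box, was in 58.2% of them on either strand, against 44.5% of all 27305 promoters. These promoters include genes that did not pass the filter, and motif shares over the tested features alone were not taken. The median GC content was 58.3% over all promoters, 65% over tested features with a window and 63.3% over the 455. Among the antisense lncRNAs, GGGCGG was in 39.7% of the 78 windows of those that rose, 60.8% of the 153 of those that fell and 62.9% of the 224 not called. TATAAA was in 7.69% (12% of all promoters), CCAAT in 31.6% (35.7%), TGANTCA in 5.93% (7.72%), CACGTG in 9.01% (7.41%) and GGTAAG in 7.25% (7.91%). The median GC content was 57.2% for those that rose and 65.3% for those that fell. Over all tested features with a window it was 65% for those called higher and 65.3% for those called lower. These shares are descriptions, and letters missing from a window say nothing about the factor.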

How the data were processed

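The authors deposited normalized reads per feature (a signal, 1 value per library); the submitters' processing notes name the builds hg38 and dm6 and, without an order, DESeq2 1.38.1, SAMtools 1.3.1, Bowtie2, cutadapt 1.14 and UMI-tools. For the annotation and the use of strand, no source used here gives an answer. Of 26067 lines, 240 repeats were dropped. Every value was a whole multiple of 1 read (100% within 0.1 read), so reads were recovered. Log2(value + 1), which understates changes at low levels, was tested with limma 3.58.1 (trend; R 4.3.3) in 3 groups and adjusted by Benjamini-Hochberg over all features. The change of a pair ratio was tested likewise over 509 antisense pairs and 16164 pairs of neighbours in the RefSeq table. The authors also deposited profile signal in 500 bins per library, scaled in a way no source used here gives; only shares were used. Alternatives were pseudocounts of 0.1 and 5, other filters and scalings, edgeR 4.0.16 and DESeq2 1.42.0 on recovered reads, a replicate block, and leaving out each library. Scripts were tested on simulated data. The members, lists, partner roles and rules were chosen with earlier results of these data known. Named were the 12 strongest changes in each direction that passed, had the same sign with each siRNA, separate libraries and a mean of at least the members' median; tested members of a list of 48 well-studied antisense lncRNAs; the 6 largest ratio changes each way; up to 10 pairs called in opposite directions; the 5 densest per kilobase; and any called whose symbol begins with MIR. Of these, 1 is not reported here. Roles were assigned from partner symbols. Of 588 members, 533 matched RefSeq by symbol and 45 by synonym; 10 did not match, and 455 had a listed strand.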

Additional observations from a re-analysis of the deposited data

How the results depend on the processing

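With 2 libraries per group, single libraries could not be tested as outliers, and lowly transcribed members are limited by depth. The counts of both siRNAs moved past 1.5 times only when a siCtrl library was left out. Leaving out each library in turn gave 64 to 100 antisense lncRNAs higher and 98 to 207 lower with both siRNAs (all other alternatives 81 to 107 and 171 to 223). It gave 50 to 91 and 69 to 165 with siSFPQ-2, 55 to 93 and 92 to 200 with siSFPQ-3, and 22 to 57 higher and 107 to 178 lower pair ratios. Of the 198 called lower with all libraries, 98 were also called without siCtrl replicate 1 and 124 without siCtrl replicate 2.

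Between the siRNAs, 0 were called higher and 0 to 4 lower when a library was left out, and DESeq2 called 2 higher. The labels give the groups the same replicate numbers. The deviations of same-numbered libraries had correlations of 0.0529 and 0.0587 between siCtrl and siSFPQ-2 or siSFPQ-3. Between siSFPQ-2 and siSFPQ-3 the correlation was 0.382, so same-numbered siSFPQ libraries did deviate together. What they share beyond the number is not in the labels, and the main fit used no block. With the replicate number as a block, 107 were higher and 223 lower with both siRNAs, 66 pair ratios rose and 201 fell, and 6 were higher and 6 lower with siSFPQ-3 than with siSFPQ-2. Restricting the pairs to known opposite strands (365 pairs) gave 38 ratios higher and 136 lower.

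Over 71 named antisense lncRNAs, 1016 of 1058 alternative log2 fold changes kept their direction and their side of the threshold. Another 36 lost or gained a call, and 6 changed sign. Without each library in turn, the uncalled log2 fold changes of CDKN2B-AS1 (-0.199 to 0.0518), ZEB1-AS1 (-0.0254 to 0.397), FOXD2-AS1 (-0.115 to 0.500), GATA6-AS1 (-0.197 to 0.0293) and TESC-AS1 (-0.316 to 0.399) changed sign. So did the uncalled ratios of INTS6-AS1 (-0.0875 to 0.0811) and NFYC-AS1 (-0.137 to 0.0438). The cause was not tested.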
